A study of Mus musculus with 16 samples.

Results

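The clustered protocadherins are a family of 58 genes on mouse chromosome 18 that lie in 3 neighbouring arrays, the alpha cluster with 14 genes, the beta cluster with 22 and the gamma cluster with 22. H3K27me3 over these genes was read from the consensus peaks that overlapped the span of a gene named Pcdha, Pcdhb or Pcdhg with a member number, widened by 2 kb on either side. Of 102957 consensus peaks, 18 met this rule, 11 in the alpha, 3 in the beta and 4 in the gamma cluster, and each peak was counted once. The C-type genes Pcdhac1, Pcdhac2, Pcdhgc3, Pcdhgc4 and Pcdhgc5 were included. Among the consensus peaks, gene names and positions alone made the choice. The consensus peaks themselves were called by the authors from ChIP-seq signal, so that stretches without a peak were not measured.

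Clustered protocadherins are adhesion proteins of the neuronal surface, and each neuron expresses a small and largely random choice of them, which gives its membrane an identity used in self-avoidance. Each variable exon has a promoter of its own. In the alpha and gamma clusters the variable exons are spliced to constant exons shared by the whole cluster, whereas each beta gene stands alone. H3K27me3 is the mark that Polycomb repressive complex 2 lays on histone H3 over silent developmental genes in embryonic stem cells.

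Chromatin came from mouse embryonic stem cells cultured on gelatin with serum, LIF and the inhibitors PD0325901 and CHIR99021, and the mark was read by ChIP-seq. The study concerned the long non-coding RNA Firre, whose induction from a transgene was compared with the same treatment of lines without it. The genotype labels gave 4 lines, which are called here WT control (WT), WT transgene (Firre WT with an inducible Firre transgene), KO control (Firre KO) and KO transgene (Firre KO with the inducible transgene). Every library was labelled with doxycycline, at 0 or 48 h, so that the lines without a transgene received the same agent. Each of the 8 combinations of line and time had 1 H3K27me3 library and 1 input library of sheared, unprecipitated chromatin. The labels named neither the promoter of the transgene nor separate clones or cultures. No condition was thus replicated, a line may stand for 1 clone, and p-values measure at most the spread between these libraries, which may be technical. In the models of time, pairs of lines and induction that spread was near the lowest value the program edgeR allows. The p-values of these models thus mostly follow depth.

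The H3K27me3 libraries held 10380781 to 14787938 counts in all consensus peaks together, the input libraries 3340654 to 6244333, and KO control at 0 h was the shallowest for both. As a check of the labels, input counts at 0 and 48 h over the peak inside Firre were 3 and 6 for WT control, 89 and 104 for WT transgene, 37 and 73 for the line labelled KO control and 66 and 70 for KO transgene. At the density of the other 652 X-linked peaks, 6.62 and 6.34 input counts would fall on this peak in WT control, against 3.42 and 6.46 for KO control. WT control thus lay near that density, (0.511 and 1.06 against 1.13 and 1.12 input counts per kb and per 1000000 library counts), while the line labelled KO control lay above it (11.7 and 12.3 against 1.08 and 1.09), as did the transgene lines. The latter value goes against a line without Firre and without a transgene. No source used here gives the deleted segment, and the name KO control below is the label alone. Of 28 cluster values and peak counts fitted again without this line, 21 kept direction and call, and those that did not are given below. Of 8 genes active in embryonic stem cells (Pou5f1, Nanog, Sox2, Klf4, Esrrb, Zfp42, Tfcp2l1 and Dppa5a) Esrrb alone had a peak in or within 2 kb of it, whereas all 39 Hox genes had one. The Esrrb region was 1.31-fold over input, a measure defined below, and was called higher than input by edgeR, where 26.3% of 22062 gene regions were.

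H3K27me3 peaks covered the protocadherin clusters in broad blocks. The 18 peaks were together 567 kb long and lay over 73.6% of the alpha, 83.3% of the beta and 61.3% of the gamma genes with their 2 kb margins (alpha genes chr18:36930285-37188897, beta genes chr18:37264998-37521419, gamma genes chr18:37661775-37841873, mm10). Their median width was 11084 bp, against 2356 bp over all peaks. Widths of at least 20 kb were reached by 7 of the 18 peaks (38.9%) and by 3.45% of all peaks. The widest, beta 1, was 113.8 kb long, and only 18 of all peaks were at least as wide. By the authors' peak caller the fold enrichment of the 18 peaks ranged from 1.57 to 3.38 with a median of 2.35, against a median of 1.53 over all peaks.

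Most blocks followed the gene starts, taken as the lower coordinate of each gene in the RefSeq annotation. Of the 58 starts, 56 lay inside a peak, all 14 of the alpha, all 22 of the beta and 20 of the 22 gamma genes. The share of all RefSeq gene starts that lay in a peak was not taken. Peaks were numbered along the chromosome within each cluster, with starts as deposited. Alpha 1 (chr18:36919149-36977468) spanned the starts of Pcdha1 to Pcdha7 and alpha 2 (chr18:36991816-37031692) those of Pcdha8 to Pcdha12. Further along, alpha 5 (chr18:37078071-37096561) held the start of Pcdhac1 and alpha 9 (chr18:37124870-37161810) that of Pcdhac2. The beta genes fell into 3 blocks, beta 1 (chr18:37245056-37358881) with Pcdhb1 to Pcdhb8, beta 2 (chr18:37398970-37461883) with Pcdhb9 to Pcdhb14 and beta 3 (chr18:37465212-37540200) with Pcdhb15 to Pcdhb22. In the gamma cluster 18 starts, those of Pcdhga2 to Pcdhga12 and of all Pcdhgb genes, lay in the single peak gamma 2 (chr18:37666122-37768008, 101.9 kb long). The start of Pcdhga1 lay in gamma 1 (chr18:37659796-37664738) and that of Pcdhgc4 in gamma 4 (chr18:37814666-37817656). The 2 starts outside any peak were those of the C-type genes Pcdhgc3 and Pcdhgc5. The longest stretch without a peak inside a cluster was the 40.1 kb between beta 1 and beta 2, which held no gene start. Next came the 38.9 kb between gamma 2 and gamma 3, which held the start of Pcdhgc3. That start, at chr18:37806410, lay close to gamma 3, which began at chr18:37806933.

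**Figure D1:**
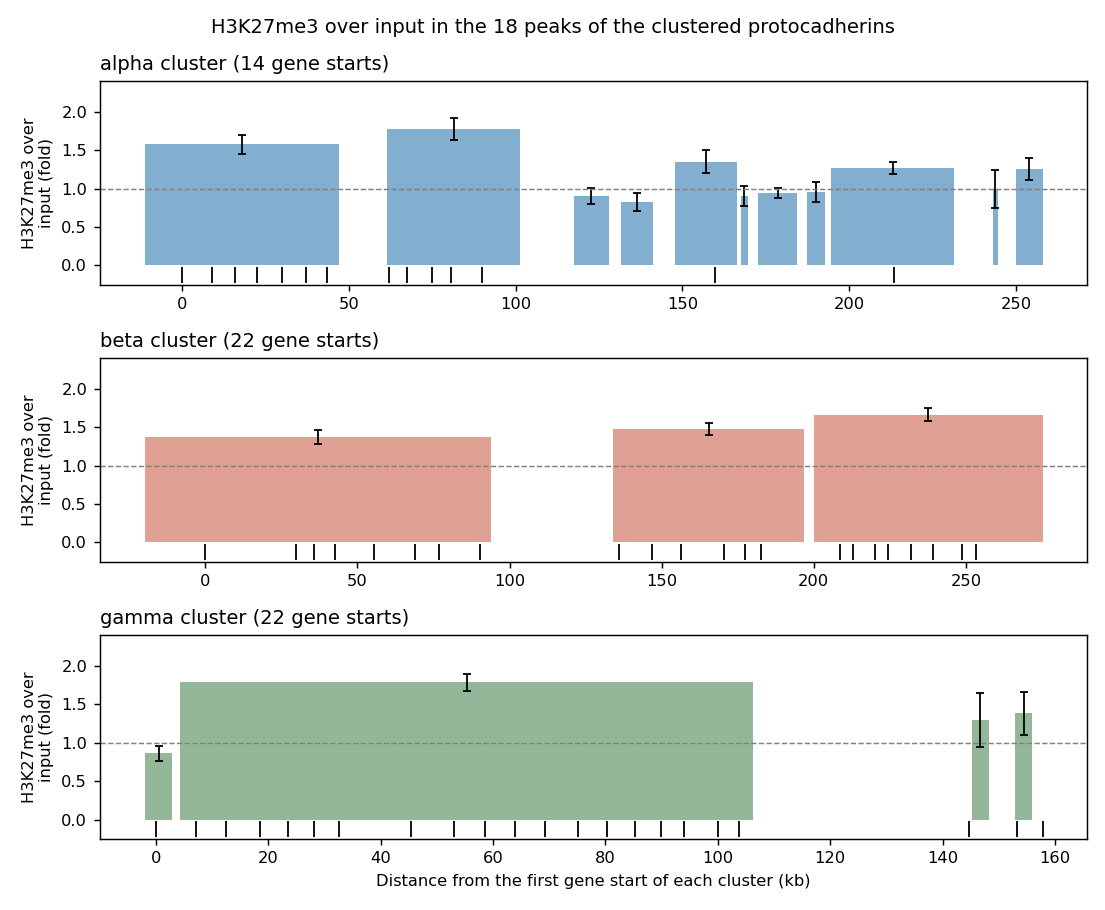
Each bar is a consensus peak, drawn to its width in kb from the first gene start of its cluster, with its height as the mean H3K27me3 over input (fold, 8 conditions), SD as error bar and short black ticks for gene starts. The tallest bars, gamma 2 (1.79-fold) and alpha 2 (1.77-fold), lie over runs of gene starts, and 6 of the 8 bars without a tick lie below the dashed line at 1.

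The level in each condition was taken as the share of a library's counts that fell in a region, divided by the share in the input library of the same line and time. A value of 1 is the average over all consensus peaks and not the level of unmarked chromatin. In the alpha cluster H3K27me3 over input was 1.34 and 1.24 in WT control at 0 and 48 h, 1.45 and 1.37 in WT transgene, 1.45 and 1.44 in KO control and 1.48 and 1.41 in KO transgene. The beta cluster gave 1.44 and 1.34, 1.54 and 1.48, 1.57 and 1.49, and 1.55 and 1.52 in the same order. For the gamma cluster the values were 1.61 and 1.56, 1.78 and 1.62, 1.78 and 1.82, and 1.80 and 1.77. In each of the 8 conditions the gamma cluster was highest and the alpha cluster lowest, and all 3 clusters were lowest in WT control at 48 h.

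**Figure D2:**
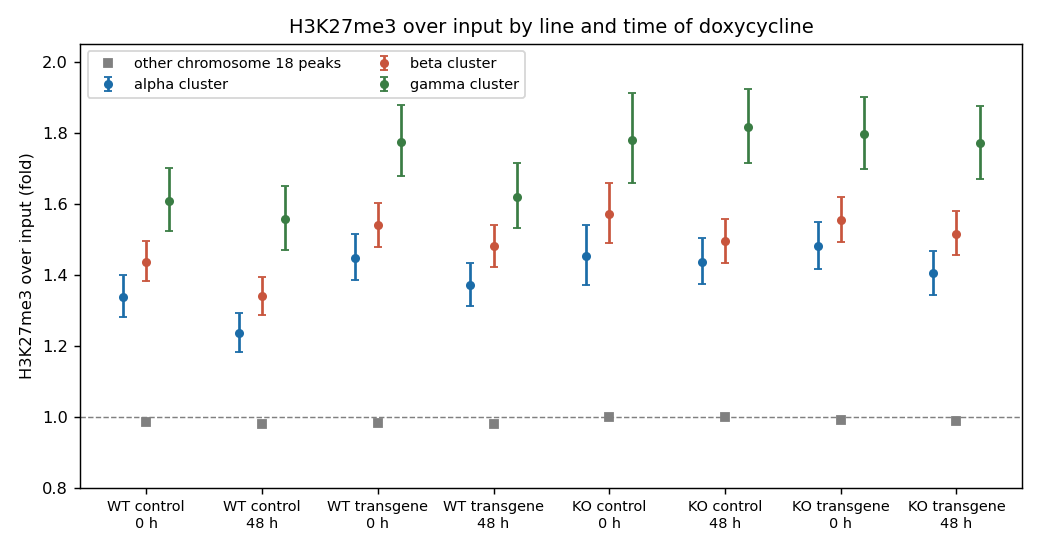
Points give H3K27me3 over input (fold) for the alpha, beta and gamma clusters in the 8 conditions of line and time, with 95% exact binomial intervals that cover counting error only, and grey squares give all other peaks of chromosome 18. The gamma cluster lies above the beta and alpha clusters in every condition, and the grey squares stay between 0.979 and 1.00.

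Over the 8 conditions the alpha cluster was 1.40 ± 0.0799-fold over input, the beta cluster 1.49 ± 0.0748-fold and the gamma cluster 1.72 ± 0.102-fold (SD, n = 8), against 0.988 ± 0.00794-fold for the other 3749 peaks of chromosome 18. The difference from the other chromosome 18 peaks came mainly from the precipitated libraries: input, in counts per kb and per 1000000 library counts, was 2.13 ± 0.0648 in the alpha, 2.02 ± 0.0800 in the beta and 2.27 ± 0.102 in the gamma cluster, and 2.07 ± 0.0348 over the other chromosome 18 peaks. With the condition as a block, edgeR's quasi-likelihood test on the 3 clusters beside all other peaks summed in 250 kb windows gave log2 differences over input of 0.48 ± 0.02 (SE) for alpha, 0.57 ± 0.02 for beta and 0.77 ± 0.02 for gamma (adjusted p = 2.19e-25, 1.22e-29 and 9.55e-32). Of the 9034 regions in this fit, 20.3% were called higher. Above the clusters stood 292 regions for alpha, 222 for beta and 110 for gamma.

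The 3 clusters differed from each other in H3K27me3 over input. On the log2 scale the gamma cluster was above the alpha cluster by a mean of 0.30 and above the beta cluster by 0.20, and the beta cluster was above the alpha cluster by 0.10, each in 8 of 8 conditions. An exact two-sided sign-flip permutation test over the 8 conditions gave p = 0.007812 for each, which is the smallest this test can give and was also the value after Benjamini-Hochberg adjustment over 18 pairs of regions. Both times of a line entered as separate conditions, which are not independent.

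Within the clusters, enrichment differed from peak to peak. With the same test on single peaks, 11 of the 18 were called higher than input and 3 lower, where 8.09% of 98400 tested peaks were called higher and 37.9% lower. The highest was gamma 2, with the Pcdhga2 to Pcdhga12 block, whose values ran from 1.61 over a median of 1.83 to 1.92 (1.79 ± 0.110-fold, n = 8; adjusted p = 1.08e-95 by edgeR). Alpha 2 with Pcdha8 to Pcdha12 reached 1.77 ± 0.145-fold and had its only value below 1.70 in WT control at 48 h (1.43). They were followed by beta 3 (Pcdhb15 to Pcdhb22) at 1.67 ± 0.0849-fold, alpha 1 (Pcdha1 to Pcdha7) at 1.57 ± 0.122-fold and beta 2 (Pcdhb9 to Pcdhb14) at 1.48 ± 0.0751-fold. Each of these 5 blocks was above 1 in 8 of 8 conditions. Among all tested peaks, 368 stood above gamma 2 and 388 above alpha 2.

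The C-type genes are expressed in the brain by most neurons rather than by random choice. Those with a start in a peak, Pcdhac1, Pcdhac2 and Pcdhgc4, lay in peaks of intermediate level. The starts of Pcdhgc3 and Pcdhgc5 lay outside any peak. The Pcdhac1 peak alpha 5 was 1.35 ± 0.145-fold over input and the Pcdhac2 peak alpha 9 was 1.27 ± 0.0757-fold, both above 1 in 8 of 8 conditions. Gamma 4 at Pcdhgc4 was 1.39 ± 0.278-fold, but with 31 to 54 input counts per library its values spread from 0.988 to 1.85. Gamma 3 holds no gene start but begins just past that of Pcdhgc3. It was 1.30 ± 0.347-fold and was below 1 in both KO control libraries (0.945 and 0.951). The first beta block, beta 1 (Pcdhb1 to Pcdhb8), was 1.38 ± 0.0900-fold and thus the least enriched of the 3 beta blocks, each of which holds 6 or 8 gene starts.

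Peaks without a gene start were lower in the median, though not each of them. The 10 peaks that held a start had a median of 1.43-fold over input and covered 515 kb. The 8 that held none had a median of 0.950-fold and covered 51.9 kb. Of these, alpha 11 (1.25 ± 0.141-fold) and gamma 3 were called higher than input (adjusted p = 2.47e-05 and 0.00254 by edgeR). The lowest 4 of all were alpha 4 (0.825 ± 0.120-fold), gamma 1 (0.861 ± 0.0923-fold), alpha 3 (0.900 ± 0.102-fold) and alpha 6 (0.905 ± 0.129-fold). Among them gamma 1, at the start of Pcdhga1, is the exception that holds a gene start, and it was below 1 in 8 of 8 conditions. Alpha 3, alpha 4 and gamma 1 were called lower than input by edgeR (adjusted p = 0.022, 0.000114 and 0.012), that is, below the average consensus peak. DESeq2 kept the alpha 4 call and lost those of alpha 3 and gamma 1 (adjusted p = 0.116 and 0.0862). With TMM scaling in place of total counts, 11 of the 18 peaks were again higher and 0 lower, while over all 98400 peaks 14269 were then higher and 10202 lower. The alpha 3 call was also lost without either library of WT control at 0 h, WT control at 48 h or KO control at 48 h (log2 difference -0.14, -0.14 and -0.12), and without the KO control line (-0.12). Peaks with a start were also the wider ones, with a median of 49.1 kb against 6.71 kb, and the part of width in the difference was not tested. Variable exons of one cluster are similar in sequence, and no source used here says how reads that map to several of them were counted.

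Other gene groups served as a scale. All 4 Hox clusters, which are developmental regulators and standard Polycomb targets in these cells, were higher, at 2.36 ± 0.194-fold (HoxA), 2.30 ± 0.124-fold (HoxB), 2.03 ± 0.261-fold (HoxC) and 2.13 ± 0.130-fold (HoxD; SD, n = 8). The non-clustered protocadherins, adhesion genes that stand alone on several chromosomes, were lower as a sum, at 1.15 ± 0.0248-fold over 185 peaks. Most of these peaks belonged to Pcdh15 (91), Pcdh9 (38) and Pcdh7 (32), so that the sum mainly describes these genes. Some single genes of the group were higher than the clusters, as given below. Every protocadherin cluster was below every Hox cluster and above this sum in 8 of 8 conditions, with p = 0.007812 for each pair by the exact two-sided sign-flip permutation test. On the log2 scale the distance from gamma to HoxC was 0.24 and that from alpha to HoxA was 0.76.

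All 12 non-clustered protocadherin genes had a peak within 2 kb. Their regions were called higher than input in 10 and lower in 1 of 12, where 26.3% of 22062 gene regions were called higher and 38.3% lower, with a median log2 difference of 0.33 against -0.09 over all gene regions. The highest were Pcdh11x (2.54 ± 0.978-fold), Pcdh19 (2.04 ± 0.513-fold), Pcdh1 (1.68 ± 0.126-fold) and Pcdh8 (1.58 ± 0.0989-fold), and Pcdh9 was the one called lower (0.952 ± 0.0686-fold). Pcdh11x and Pcdh19 lie on the X chromosome. Of 17 genes that flank the clusters, from Tmco6 to Pcdh12, 6 had a peak within 2 kb. The share of all genes with a peak within 2 kb was not taken, so that counts of genes with a peak have no scale here. Of these, Arap3 (1.32 ± 0.0835-fold) and the non-clustered Pcdh1 and Pcdh12 (1.08 ± 0.107-fold) were called higher, and Hdac3, Rell2 and Fchsd1 had values of 0.955, 0.969 and 1.00. Among 12 genes for factors that act on protocadherin promoters, such as Ctcf, the cohesin subunits and DNA methyltransferases, Nipbl, Smchd1, Dnmt3a and Dnmt3b had a peak, of which Dnmt3b was called higher (1.09 ± 0.113-fold) and the other 3 lower.

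After 48 h of doxycycline the H3K27me3 share of all 3 clusters was lower, in lines with and without the transgene. No 48 h library was without doxycycline, so that the agent and the time in culture cannot be told apart. The 48 h to 0 h ratios of the gamma cluster were 0.914 (WT control), 0.913 (WT transgene), 0.913 (KO control) and 0.902 (KO transgene). The alpha cluster gave 0.958, 0.961, 0.968 and 0.936, and the beta cluster 0.941, 0.936, 0.952 and 0.989. All 12 ratios were below 1, and the gamma cluster had the lowest of each line. In edgeR's quasi-likelihood test with line as a covariate, the gamma cluster fell by 0.13 ± 0.02, the alpha cluster by 0.07 ± 0.01 and the beta cluster by 0.07 ± 0.01 on the log2 scale (SE; adjusted p = 2.56e-11, 0.00078 and 5.68e-05). DESeq2 called gamma alone (adjusted p = 4.05e-06, against 0.0855 for alpha and 0.0555 for beta). Of the 9104 clusters and windows, 1.87% were called and the median difference was 0.00. The clusters held 5670 to 9810 counts per H3K27me3 library on average, against 951 in the median window, so that smaller differences could pass the test in them.

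**Figure D3:**
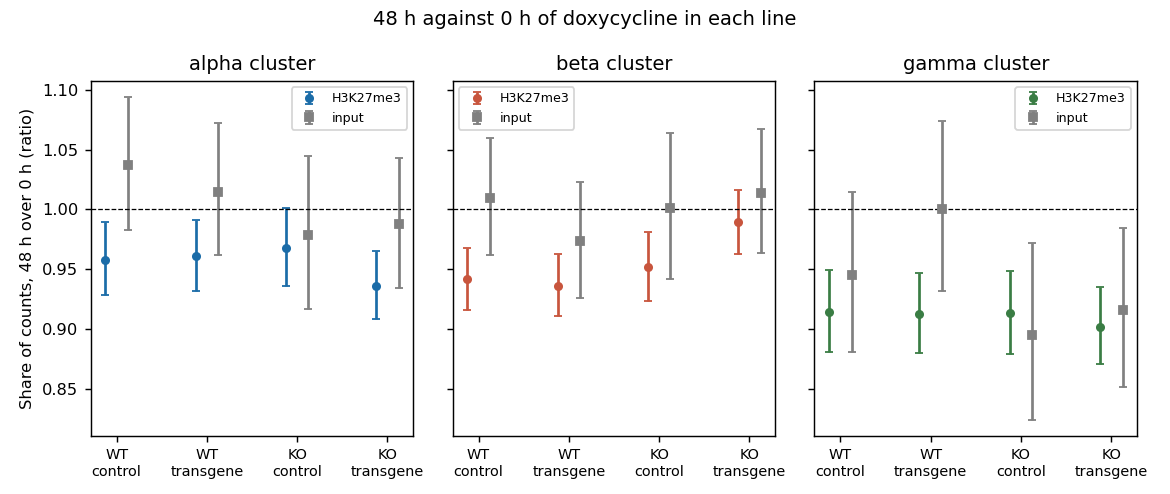
Coloured points give the ratio of the share of H3K27me3 counts at 48 h to that at 0 h in each of the 4 lines, grey squares the same ratio in input, with 95% exact binomial intervals that cover counting error only. All H3K27me3 points lie below 1, and in the gamma cluster the input points of 3 lines lie below 1 as well.

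Of the 18 peaks, 15 had a log2 difference with time below 0, with a median of -0.07 against 0.00 over all peaks. Past the threshold were 2, both lower, where 0.109% of all peaks were called. Gamma 2 fell by 0.14 ± 0.02 on the log2 scale (adjusted p = 2.49e-13 by edgeR), from 3.91, 4.16, 4.51 and 4.27 normalised counts per kb (WT control, WT transgene, KO control, KO transgene) at 0 h to 3.56, 3.81, 4.14 and 3.85 at 48 h. Within each line the 48 h value was thus the lower one, while the 2 sets of values overlapped between lines. Alpha 1 fell by 0.09 ± 0.02 (adjusted p = 0.0309), a call that was lost whichever of the 8 libraries was left out (log2 difference -0.11 to -0.08) and with DESeq2. With input as an offset neither peak was called (-0.1004 for alpha 1 and -0.0482 for gamma 2).

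Input moved with this result in the gamma cluster. Its input difference with time was -0.09 ± 0.03 on the log2 scale (unadjusted p = 0.00284, adjusted p = 0.84 by edgeR), against 0.01 ± 0.02 in the alpha and 0.00 ± 0.02 in the beta cluster. Over input the gamma value was lower at 48 h in 3 lines and higher in KO control (1.78 and 1.82). With the matched input counts as an offset none of the 3 clusters was called (log2 differences of -0.07, -0.07 and -0.04 for alpha, beta and gamma, adjusted p = 0.495, 0.519 and 0.812), in a fit that called 2 of 9104 regions. An offset that followed enrichment, chosen after seeing the data, left the gamma cluster called at -0.07 (adjusted p = 0.00332 by edgeR). The alpha and beta clusters were then not called, at -0.04 and -0.03 (adjusted p = 0.0623 and 0.12). The Hox regions moved in the same direction, with 5 of 6 called lower, as were Pcdh7, Pcdh10 and Pcdh11x among the 12 non-clustered protocadherins (log2 differences -0.08, -0.12 and -0.34), where 1.64% of gene regions were called.

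The change that was particular to Firre induction was tested as the 48 h change in the transgene lines minus that in the control lines. It was -0.02 ± 0.02 in the alpha, 0.03 ± 0.02 in the beta and -0.01 ± 0.03 in the gamma cluster on the log2 scale (SE; adjusted p = 0.976, 0.957 and 0.986 by edgeR). None of the 18 peaks passed the threshold, 0 had an unadjusted p below 0.05, and DESeq2 and limma-voom also called 0. Of all 102957 peaks 0.00583% were called, and of the clusters and windows 0.0439%. The 3 peaks with the smallest unadjusted p were alpha 2 (0.09 ± 0.05), alpha 4 (-0.26 ± 0.14) and alpha 1 (-0.08 ± 0.04). On simulated counts this model recovered 4 of 100 windows changed by 0.1 and 31 of 100 changed by 0.2 on the log2 scale. That recovery is for ordinary windows, which hold fewer counts than the clusters, and does not give the size detectable in a cluster.

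The lines differed as well. In the gamma 2 values above, WT control was lowest and KO control highest at each time. With time as a covariate, the line labelled KO control exceeded WT control in the gamma cluster by 0.24 ± 0.02 and in the alpha cluster by 0.11 ± 0.02 on the log2 scale (SE; adjusted p = 2.17e-18 and 1.52e-06 by edgeR), in a contrast that called 22.3% of clusters and windows. The beta cluster differed by 0.04 ± 0.02 (adjusted p = 0.0548), while its input was lower in KO control (log2 difference -0.11 ± 0.03, adjusted p = 0.00802; 5.38% of input windows called), so that with input as an offset the beta difference was 0.19 (adjusted p = 5.46e-05). Of the 18 peaks 3 were called, all higher, against 4.27% of all peaks: gamma 2 by 0.27 ± 0.02, alpha 2 by 0.22 ± 0.04 and alpha 1 by 0.17 ± 0.03. With the offset that followed enrichment the gamma cluster was still called at 0.16 (adjusted p = 2.31e-10) and the alpha cluster was not, at 0.04 (adjusted p = 0.152). Of the 3 peaks, alpha 2 lost its call with input as an offset (0.29, adjusted p = 0.0566) and with the offset that followed enrichment (0.0938, adjusted p = 0.141), and alpha 1 with the latter (0.0597, adjusted p = 0.403). The alpha 1 call was lost without WT control at 0 h (0.13, adjusted p = 0.105), and the beta cluster was called without KO transgene at 0 h or at 48 h (0.0434 and 0.045, adjusted p = 0.0263 and 0.0195). The Hox regions moved in the same direction, with 6 of 6 called higher (median log2 difference 0.33) and 2 also called higher in input. Of the 12 non-clustered protocadherins 2 were called higher and 1 lower, where 2372 of 22300 gene regions were called higher and 1026 lower.

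WT transgene also exceeded WT control, by 0.11 ± 0.02 in the alpha, 0.06 ± 0.02 in the beta and 0.10 ± 0.02 in the gamma cluster (log2; adjusted p = 1.21e-05, 0.0184 and 0.00272 by edgeR), where 3.59% of clusters and windows were called. The same 3 peaks were called higher, alpha 1 by 0.14 ± 0.03, alpha 2 by 0.15 ± 0.04 and gamma 2 by 0.12 ± 0.02, against 0.273% of all peaks. The alpha, beta and gamma differences were 0.0408, -0.0229 and -0.0044 with the offset that followed enrichment, and none was then called (adjusted p = 0.364, 0.657 and 0.974). With input as an offset they were 0.14, 0.13 and 0.11, and again none was called (adjusted p = 0.134, 0.143 and 0.417). The beta and gamma calls were also lost without any 1 of the 4 H3K27me3 libraries of these lines, with log2 differences of 0.04 to 0.08 and 0.09 to 0.10, and the alpha call was kept. Each of alpha 1 and gamma 2 lost its call without any 1 of these 4 libraries (0.10 to 0.17 and 0.11 to 0.12), and alpha 2 without WT control at 0 h, WT control at 48 h or WT transgene at 48 h (0.20, 0.10 and 0.09). DESeq2 called 0 of the 18 peaks. Among the Hox regions edgeR called 4 of 6 higher and 0 lower (median log2 difference 0.10), where 333 of 22300 gene regions were called higher.

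**Figure D4:**
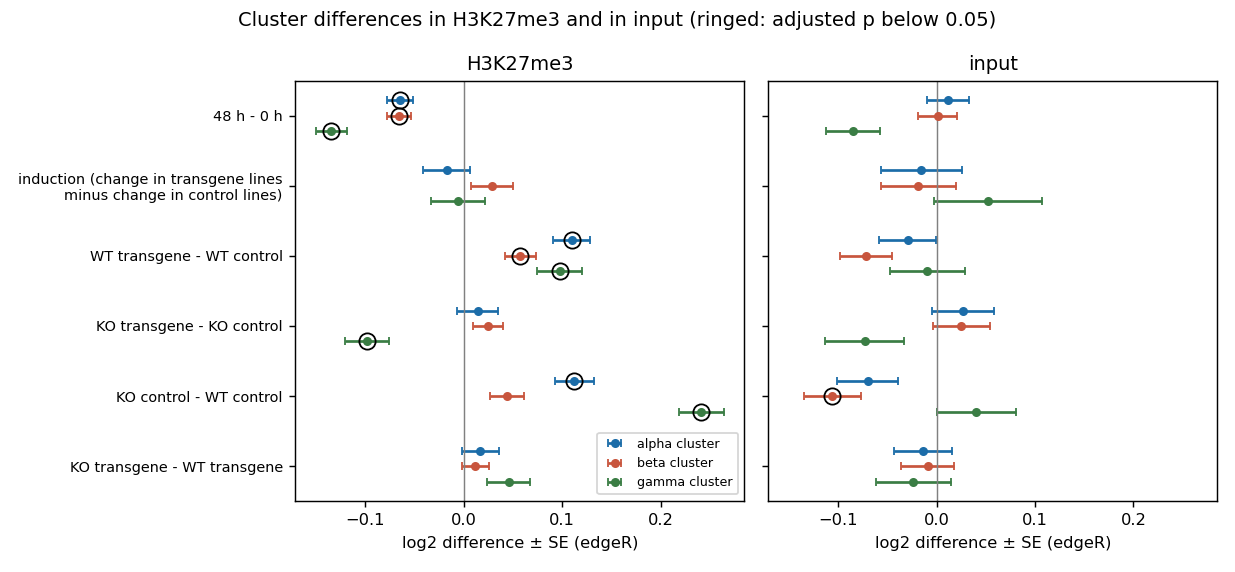
Points are log2 differences ± SE from edgeR for the alpha, beta and gamma clusters in H3K27me3 (left) and input (right) for time, induction and 4 pairs of lines, with a ring where the adjusted p is below 0.05. The gamma cluster has the largest H3K27me3 differences, -0.13 with time and 0.24 between KO control and WT control, and the 1 ring in input is the beta cluster between these lines (-0.11).

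In the Firre KO background the transgene line was lower in the gamma cluster, by a log2 difference of -0.10 ± 0.02 against KO control (adjusted p = 0.000476 by edgeR; 9.72% of clusters and windows called), and gamma 2 was the 1 peak of 18 called, at -0.11 ± 0.02 (0.777% of all peaks called). The alpha and beta clusters differed by 0.01 ± 0.02 and 0.02 ± 0.02 (adjusted p = 0.783 and 0.375). Without KO transgene at 0 h the beta cluster was called higher (0.06, adjusted p = 0.0106). The gamma cluster call was lost with DESeq2 (-0.10, adjusted p = 0.0501) and with input as an offset (-0.03, adjusted p = 0.882). The gamma 2 call was lost with DESeq2 (-0.113, adjusted p = 0.06105) and with input as an offset (-0.0671, adjusted p = 0.8905). It was also lost without KO control at 48 h (-0.11). All 6 Hox regions were called lower in this contrast (median log2 difference -0.15), 1 of them in input as well, where 1026 of 22300 gene regions were called lower. Between the 2 transgene lines none of the clusters or peaks was called, with 1 of 18 peaks at an unadjusted p below 0.05 and 0 called by DESeq2. The differences between KO transgene and WT transgene were 0.02 ± 0.02, 0.01 ± 0.01 and 0.05 ± 0.02 in the alpha, beta and gamma clusters, and alpha 8 (-0.24 ± 0.12), beta 1 (0.05 ± 0.03) and gamma 2 (0.04 ± 0.02) had the smallest unadjusted p. In that contrast 11.5% of clusters and windows and 1.74% of peaks were called. Of the 6 Hox regions 4 were called higher there, and 2 were called higher in input, where 1376 of 22300 gene regions were called higher in H3K27me3.

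**Figure D5:**
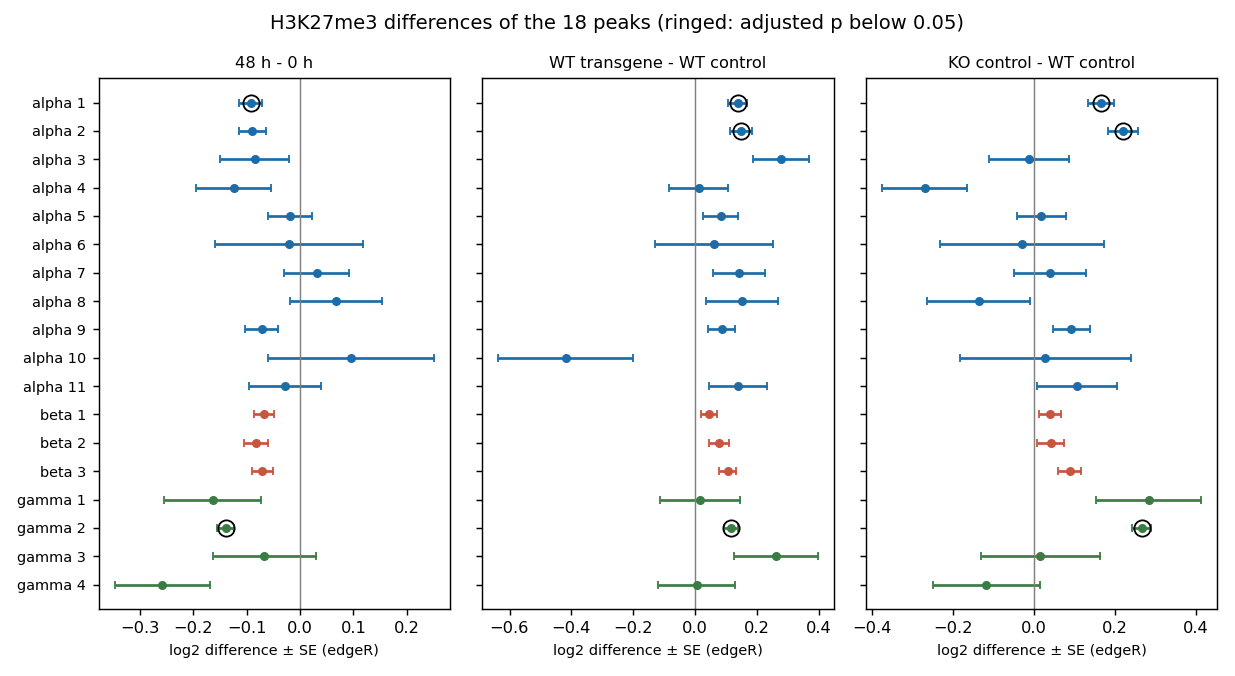
Points are log2 differences in H3K27me3 ± SE from edgeR for each of the 18 peaks, for 48 h against 0 h and for 2 pairs of lines, with a ring where the adjusted p is below 0.05. Gamma 2 is ringed in all 3 panels (-0.14, 0.12 and 0.27), alpha 1 in all 3 and alpha 2 in both pairs of lines.

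The additive model, which compared both KO lines with both WT lines, gave a higher gamma cluster in the KO lines by 0.14 ± 0.03 (log2; adjusted p = 0.00175 by edgeR; 9.91% of clusters and windows called higher). The alpha and beta differences were 0.06 ± 0.03 and 0.03 ± 0.03 (adjusted p = 0.108 and 0.529), and the peaks alpha 2 (0.13 ± 0.04) and gamma 2 (0.15 ± 0.04) were called, 2 of 18 against 4.42% of all peaks. Of the 6 Hox regions 5 were called higher in the KO lines and 2 were called higher in input, where 1969 of 22300 gene regions were called higher in H3K27me3. Without the line labelled KO control the background term compares the 2 transgene lines alone, where the gamma difference was 0.05 (adjusted p = 0.176) and neither peak was called. With input as an offset both peaks lost their call (0.15 and 0.16, adjusted p = 0.496 and 0.192), and DESeq2 and the offset that followed enrichment called gamma 2 alone. Both peaks also lost their call without any 1 library of WT control or KO control (log2 differences of 0.09 to 0.12 for alpha 2 and 0.12 for gamma 2), and alpha 2 also without WT transgene at 0 h (0.13). With whole lines as units over input, 2 against 2, the gamma difference was 0.13 with an exact permutation p of 0.333, the smallest this design allows. Line and background thus cannot be told apart.

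No cluster was called between lines with and without the transgene in the same model (0.06 ± 0.03, 0.04 ± 0.03 and -0.0007 ± 0.0312 for alpha, beta and gamma, adjusted p = 0.258, 0.519 and 0.996 by edgeR; 3.51% of clusters and windows called). Without the line labelled KO control this term compares WT transgene with WT control alone, so that its values (0.11, 0.06 and 0.10) repeat that pair and are no separate result. The difference of the transgene lines from their controls was not the same in the 2 backgrounds: the KO value minus the WT value was -0.20 ± 0.03 in the gamma and -0.10 ± 0.03 in the alpha cluster (adjusted p = 7.91e-07 and 0.013), and -0.03 ± 0.02 in the beta cluster (adjusted p = 0.546), with 5.99% of clusters and windows called. The alpha call was lost without 6 of the 8 libraries, all but KO control and KO transgene at 0 h (-0.10 to -0.08), and the gamma 2 peak was the 1 of 18 called, at -0.23 ± 0.03 (0.441% of all peaks called). Neither cluster was called with input as an offset (alpha -0.16, gamma -0.14) or with the offset that followed enrichment (alpha -0.017, gamma -0.0917). The gamma 2 call was lost in both of these fits as well (-0.1934 and -0.0839, adjusted p = 0.7609 and 0.4698 by edgeR). Without the line labelled KO control this difference cannot be computed. Of the 6 Hox regions 5 were called lower for it (median -0.27), where 666 of 22300 gene regions were called lower. Alpha 3, which holds no gene start and was among the least enriched peaks, was the 1 peak called higher in the transgene lines (0.30 ± 0.07, adjusted p = 0.0377; 0.0748% of all peaks called). Its call was lost without 6 of the 8 libraries, all but WT control at 48 h and WT transgene at 48 h (log2 difference 0.24 to 0.35), and with DESeq2.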

How the data were processed

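H3K27me3 and input ChIP-seq were measured in 4 lines at 2 times, 16 libraries in all, grouped by the genotype, antibody and time labels. The authors deposited whole-number counts per consensus peak and library, and a peak table with a caller's score, fold enrichment and -log10 q-value per peak (mm10). Per the submitters' processing notes the tools were BWA 0.7.17-r1188, MACS2 2.2.71, featureCounts and DESeq2 1.26.0, with no role given. No source used here says from which libraries the peaks were called. RefSeq gene positions (GRCm38.p6) chose the peaks. The members, gene lists and tests were chosen with earlier results of these data known.

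From the deposited counts, edgeR 4.0.16 (R 4.3.3) quasi-likelihood tests with TMM scaling were fitted to all 102957 peaks, to the clusters with all other peaks summed in 250 kb windows (9104 features) and to 22300 gene regions, and called at a Benjamini-Hochberg adjusted p below 0.05. Models had line and time as covariates (time and pairs of lines), induction as an interaction, or background, transgene and time as additive terms. Enrichment over input used total counts and a block per condition. The contrast of the transgene difference between backgrounds was added after seeing the data. With 1 library per condition the spread came from the residual of the model and was near the lowest value edgeR allows in the line and induction models, so that standard errors mostly follow depth. Intervals are 95% exact binomial. The models were tested on simulated data: for time, 44 of 100 windows changed by 0.1 and 76 of 100 changed by 0.2 (log2) were recovered. Named peaks were the 8 highest and 4 lowest over input, those past the threshold in a comparison, at most the 8 largest changes, or the 3 with the smallest p where none passed. List genes were named by the threshold, with at most 6 highest and 2 lowest over input. The peaks alpha 9 and gamma 3 and the values of Hdac3, Rell2 and Fchsd1 were added after their values were seen. Alternatives were DESeq2 1.42.0, limma-voom (limma 3.58.1), other scalings, windows and filters, input as an offset, each library left out, and, chosen after seeing the data, an offset following enrichment and the KO control line left out.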

Additional observations from a re-analysis of the deposited data

Results flagged for a closer look

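Beta 1, the block of Pcdhb1 to Pcdhb8, was at 1.22-fold over input in WT control at 48 h, apart from the other 3 conditions of the WT background, which lay at 1.34, 1.35 and 1.36. It was 1 of 44 groups of 4 conditions tested for a value that stands apart, and chance marks about 1 in 20 such groups.

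The difference of the transgene lines from their controls was not the same in the Firre KO and WT backgrounds by edgeR's test of that difference. The KO value minus the WT value was -0.20 on the log2 scale in the gamma cluster, -0.10 in the alpha cluster and -0.23 in the gamma 2 peak (adjusted p = 7.91e-07, 0.013 and 5.64e-09). This contrast was added after seeing the data, and it called 5 of the 6 Hox regions lower as well. With input as an offset, or with the offset that followed enrichment, neither cluster was called. Gamma 2 was not called in these fits either (-0.1934 and -0.0839). The alpha call was also lost without 6 of the 8 libraries. The 2 control lines and the 2 transgene lines are 1 line each with 2 libraries, and the line labelled KO control held more input counts at Firre than its label implies, so that line and background cannot be told apart.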

How the results depend on the processing

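Of 1069 alternatives of the cluster values and peak counts 943 kept direction and side of the threshold, as did 1387 of 1551 alternatives of single peaks and lists. All 198 alternatives of the 18 pairs of regions did so. Where a value did not, the cause was not tested. No paired analysis was possible because replicate numbers, each 1 in a group of 1 library, pair nothing. Pairing by line, time or condition is part of the models and of the sign-flip test. The filter on low counts left 98400 of 102957 peaks for enrichment and removed no peak for the H3K27me3 contrasts, and without it none of 40 cluster values and peak counts changed its call. Without the KO control line, the differences KO transgene minus KO control, KO control minus WT control and that between backgrounds gave no value.

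With input as an offset, the log2 difference with time was -0.0709 (alpha), -0.0653 (beta) and -0.0424 (gamma) with 0 peaks called. For background, alpha 0.13 and beta 0.11 were then called, with 0 peaks, and for transgene gamma was 0.04 with 0 peaks. WT transgene minus WT control gave 0.14, 0.13 and 0.11 with 0 peaks, KO transgene minus KO control gave -0.02, -0.0137 and -0.0292 with 0 peaks, KO control minus WT control gave beta 0.19, and the difference between backgrounds gave alpha -0.16 and gamma -0.14 with 0 peaks.

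With DESeq2, time gave alpha -0.0645 and beta -0.066 with 1 peak, background 1 peak and transgene 0 peaks. WT transgene minus WT control gave beta 0.0587 and gamma 0.0986 with 0 peaks, KO transgene minus KO control gamma -0.10 with 0 peaks, and the difference between backgrounds alpha -0.10. Under limma-voom 6 peaks were called with time and 4 for the difference between backgrounds.

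With the offset that followed enrichment, time gave alpha -0.0425 and beta -0.0335 with 1 peak, and background beta -0.003 with 1 peak. WT transgene minus WT control gave alpha 0.0408, beta -0.0229, gamma -0.0044 and 0 peaks, with the peak gamma 2 at -0.0036. KO control minus WT control gave alpha 0.0388 and beta -0.0303 with 1 peak, KO transgene minus WT transgene gamma 0.0722, and the difference between backgrounds alpha -0.017, beta 0.0539 and gamma -0.0917 with 0 peaks.

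With total counts, time called 1 peak, background gave beta -0.0024 and 1 peak, transgene gamma 0.0039, WT transgene minus WT control 1 peak, KO transgene minus KO control 2 peaks, KO transgene minus WT transgene alpha -0.0009 and beta -0.0064, and the difference between backgrounds alpha -0.0699. At a minimum mean count of 50, 2 peaks were called for KO transgene minus KO control. Beta in KO control minus WT control was called with DESeq2 size factors (0.0484), TMM outside chromosome 11 (0.0542) and 100 kb windows (0.0526). Without the KO control line, 1 peak was called with time, background gave gamma 0.0473 and 0 peaks, and transgene gave alpha 0.11, beta 0.0587 and gamma 0.099 with 3 peaks. With whole lines, background gave gamma 0.13. Under TMM scaling of enrichment alpha 3 was 0.0078, alpha 6 0.0057, alpha 7 0.0775, alpha 8 0.11 and alpha 10 0.087, and alpha 10 was 0.003 without either library of KO transgene at 48 h.

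With each library left out in turn, member peaks called ranged from 1 to 2 with time, 0 to 2 for background, 0 to 1 for transgene, 0 to 4 for WT transgene minus WT control, 0 to 1 for KO transgene minus KO control and 1 to 2 for the difference between backgrounds. Induction ranged from -0.0351 to 0.0009 (alpha), -0.0146 to 0.0689 (beta) and -0.0138 to 0.0025 (gamma), and transgene gamma from -0.0267 to 0.0269. WT transgene minus WT control ranged from 0.0389 to 0.0754 (beta) and 0.0939 to 0.1012 (gamma), KO transgene minus KO control from -0.001 to 0.0324 (alpha) and -0.0126 to 0.0623 (beta), KO control minus WT control beta from 0.0298 to 0.0597, KO transgene minus WT transgene beta from -0.0251 to 0.0487, and the difference between backgrounds from -0.1104 to -0.0774 (alpha) and -0.0701 to 0.0053 (beta). Depth limited the narrow peaks most: alpha 10 held 10 to 26 input counts per library and beta 1 held 694 to 1458.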
